A study of Mus musculus with 2 samples.

Results

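The genes described here are those named for the proteins of the cytosolic ribosome of the mouse. They were taken from the deposited table by symbol, as every row whose name starts with Rpl or Rps and a digit, together with Rplp0, Rplp1, Rplp2 and Rpsa, and without the S6 kinases, Rps19bp1, Rpl7l1 and symbols marked -ps as pseudogenes. This gave 91 of 54532 rows. Of these, 77 carry the name of a ribosomal protein itself, and 14 carry a name that extends another member's, such as Rpl3l or Rps27l, and are paralogs or processed copies. By GENCODE gene type, 84 of the 91 rows are protein-coding, 5 are processed pseudogenes and 2 are transcribed processed pseudogenes. All of these pseudogenes are among the 14 copies. The tissue sequenced was the interscapular brown fat of C57BL/6J mice, 1 month old and labelled male. The rheb BAD KO library pools tissue from 3 Rheb FL/FL mice that carry a Ucp1-Cre transgene, so the deletion of Rheb is limited to cells in which the Ucp1 promoter is active. Its control library pools 3 littermates, which the series title gives as Rheb FL/FL.

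A ribosome is an RNA machine held together by a fixed set of proteins, each present once or a few times per particle, so cells keep the supply of these proteins balanced. Rheb switches on the mTORC1 kinase complex, which promotes ribosome production. The mRNAs of ribosomal proteins start with a cytosine followed by a run of pyrimidines (the 5′ terminal oligopyrimidine, or TOP, motif), and through this run mTORC1 and the RNA-binding protein LARP1 control how well they are translated. The measurements below are amounts of mRNA and not of translation.

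Start site sequences were available in the RefSeq promoter table (GRCm38.p6, the build that mm10 names) for 57 of the 77 members that are not copies. A run of at least 8 letters that are each C or T, read on the gene's own strand between 20 bases before and 30 bases after the annotated start, was present in 32 of the 57 (56.1%) and in 21.4% of 26959 other genes. The ETS-family motif CCGGAAGT, searched on both strands from 250 bases before to 50 after the start, was present in 11 of the 57 (19.3%) and in 4.27% of the other genes. For both motifs a gene counted if any of its listed starts had it, so genes with more starts had more chances. The windows below show the pyrimidine run in capitals, 5′ to 3′, for Rps6 and for the 4 members with the highest and the 4 with the lowest ratios among those that had a run and a mean of at least 10 CPM (scaled counts per 1000000).
Rpl38 (chr11:114668568-114668597, plus strand): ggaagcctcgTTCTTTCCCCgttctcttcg
Rpl10a (chr17:28328565-28328594, plus strand): atgcgcaaagcgctctgCCTTCTTTCCggt
Rplp2 (chr7:141447636-141447665, plus strand): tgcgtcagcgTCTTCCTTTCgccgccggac
Rps9 (chr7:3704025-3704054, plus strand): aaccgccttgTCTCTCTTTgtctcgggcct
Rps6 (chr4:86857349-86857378, minus strand): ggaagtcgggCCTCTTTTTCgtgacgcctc
Rpl4 (chr9:64173367-64173396, plus strand): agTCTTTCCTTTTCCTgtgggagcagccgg
Rps25 (chr9:44407694-44407723, plus strand): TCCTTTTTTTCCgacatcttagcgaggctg
Rpl11 (chr4:136053364-136053393, minus strand): acggggccggaagTCTCCCTCTCTCTTCCT
Rpl15 (chr14:18270967-18270996, minus strand): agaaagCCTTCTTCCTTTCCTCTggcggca
Apart from Rps6, these windows were picked among members with a run, so they do not show how runs and ratios go together. The 32 members with a run had a median log2 ratio of 0.39, and the 25 without a run had one of 0.69. Annotated starts can lie some bases away from the true start, so the absence of a run says only that these letters were not in the window.

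The rheb BAD KO library held 23699316 counts and the control library 21855229. Each group is a single library, so no difference has a replicate check and no p-value is given. Ratios are knockout over control after TMM scaling. Intervals are 95% exact binomial (Clopper-Pearson) intervals of the ratio and cover counting error only. Rheb had 568 counts in the knockout and 1037 in the control library (ratio 0.553, 0.499 to 0.613). Both libraries are labelled male, but Xist had 4 counts in the knockout and 7452 in the control library, and the Y-linked Eif2s3y had 2653 and 0. The effect of the knockout and that of sex cannot be told apart in these libraries. The brown adipocyte markers were present in both libraries, with Ucp1 at 65375 counts in the knockout and 50564 in the control library. Mitochondrially encoded genes took 27.65% of the knockout and 20.99% of the control counts.

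As a group, ribosomal protein mRNAs were higher in the knockout library. Together the 91 rows took 2.28% of its counts (540328; interval 2.27% to 2.29%) and 1.70% of the control counts (370846; 1.69% to 1.70%). Over nuclear genes alone, without the mitochondrial genome and 7 chromosome 1 rows that resemble mitochondrial genes, the shares were 4.02% in the knockout and 2.50% in the control library. Those 7 rows held 15.69% of all counts in the knockout and 11.15% in the control library, so leaving them out changes the denominators much. In bulk tissue, fewer cells of a type and less RNA per cell cannot be told apart. Of the 91 members, 85 averaged 1 CPM or more across the pair of libraries. Rpl24 and Rps3a2 passed this level through the control library only, and the other 83 had at least 1 CPM in both libraries.

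The call rule asked for a difference of 1.5-fold or more, on log2 ratios with a pseudocount of 0.5 CPM, and an interval without 1 in it. By this rule 32 of the 85 were higher and 3 were lower in the knockout library, whereas among all 12973 genes tested 21.9% were higher and 21.9% were lower. The lower members were Rpl3l, Rps10 and Rps3a2. Of these, Rps3a2 passed the filter through the control library only, and Rps10 had 33 and 66 counts. The median log2 ratio was 0.48 over the 85 members, which is 1.39-fold, and -0.003 over all genes. The members lay closer together than other genes, with the middle 50% of their log2 ratios between 0.26 and 0.71 against -0.51 and 0.51 over all genes. The members also had higher levels, with medians of 257.6 CPM in the knockout and 187.8 in the control library, against 14.04 and 14.47 over all genes. Counting error is larger at low levels, and its part in the spread was not tested. The difference between the libraries was small per gene and mostly in 1 direction, with 77 of 85 ratios above 1. At a threshold of 0.32 on the log2 scale 57 members were higher and 4 lower (background 31.6% and 31.9%), and at 2-fold 4 were higher and 1 lower (9.26% and 9.97%). Rpl12, at the base of the factor-binding stalk, at 1.56-fold, and Rpl19, at 1.49-fold, lay on either side of the 1.5-fold threshold. With plain total-count scaling, under which the median of all genes was -0.13, 20 members were higher and 4 lower (background 17.4% and 27.2%), with a median of 0.35; of the 75 members that are not copies and had a mean of at least 10 CPM, 6 then lay below 0, against 2 with TMM.

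**Figure D1:**
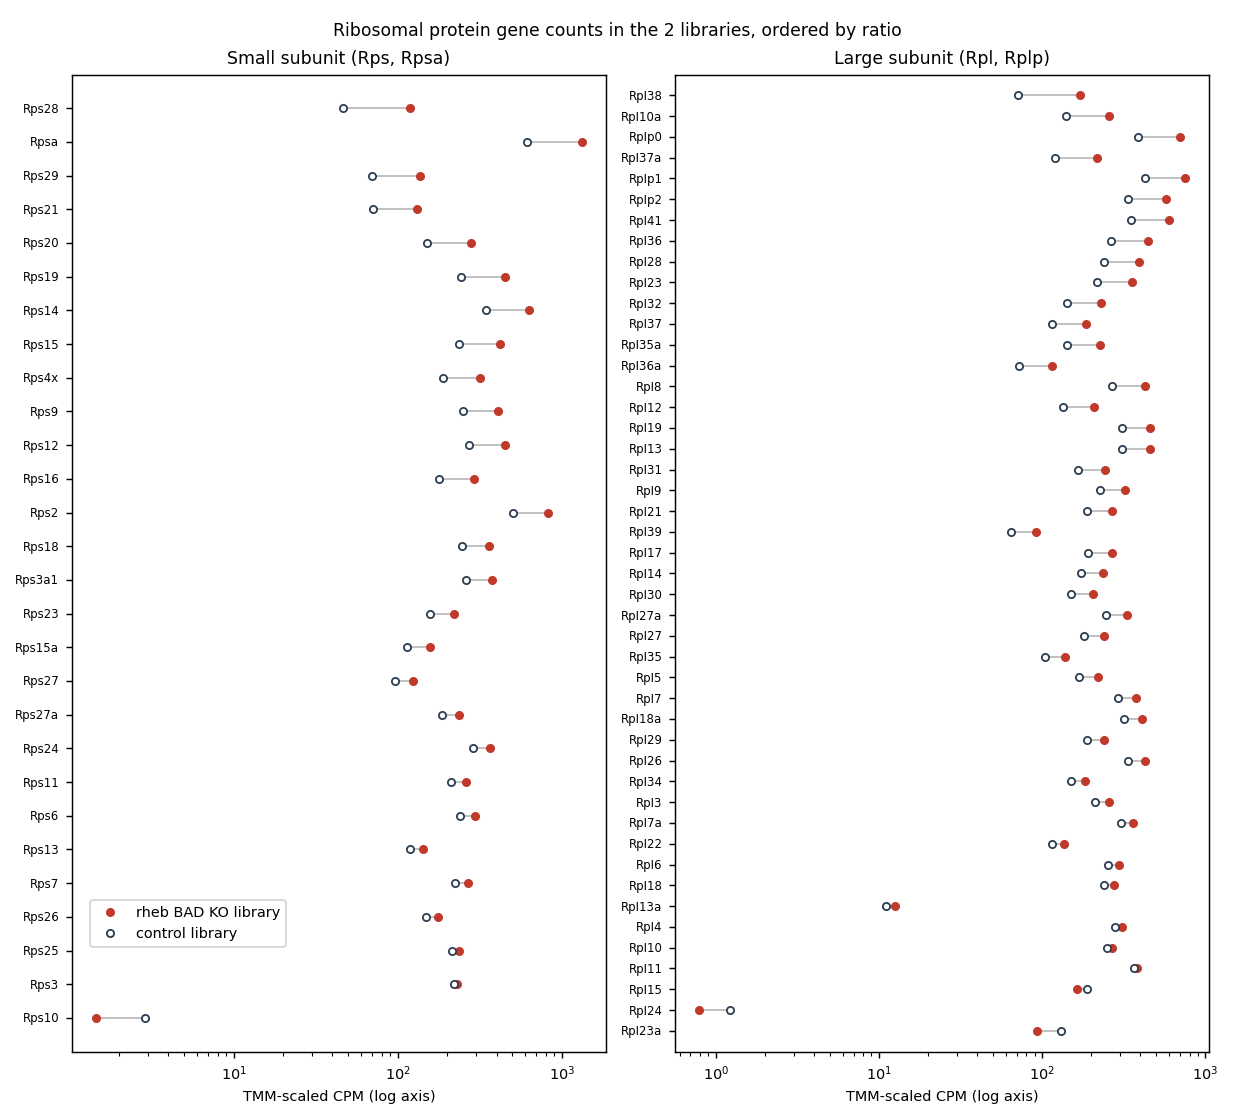
TMM-scaled CPM of 74 of the 77 members that are not copies in the rheb BAD KO library (filled) and the control library (open), 1 library each, on a log axis and ordered by ratio within each subunit. The knockout point lies to the right of the control point for all members shown except Rps10, Rpl15, Rpl24 and Rpl23a, and Rps10, Rpl13a and Rpl24 lie far below the rest in both libraries.

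The small subunit, which reads the mRNA, had 31 members, with 15 higher (48.4%), 1 lower (3.23%) and 15 neither. Its median log2 ratio was 0.54. The large subunit, which joins the amino acids, had 46 members, with 16 higher (34.8%), 0 lower and 30 neither. Its median was 0.46. Over all genes tested 21.9% were higher and 21.9% lower. The middle 50% of the log2 ratios overlapped between the subunits, from 0.32 to 0.82 for the small and from 0.28 to 0.69 for the large subunit. The 33 members that have a counterpart in bacterial ribosomes had a median of 0.49 (14 higher, none lower) and the 44 without one a median of 0.51 (17 higher, 1 lower).

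All 3 genes of the acidic stalk of the large subunit, which recruits the translation factors, were higher in the knockout library. Rplp0, the stalk's anchor (chromosome 5, 115559467 to 115563727, plus strand, mm10), had 15869 counts in the knockout and 8859 in the control library, 1.81-fold higher (1.76 to 1.86). Rplp1 had 16927 and 9782 counts, 1.75-fold higher (1.71 to 1.79). Rplp2 had 12998 and 7654 counts, 1.72-fold higher (1.67 to 1.76). The stalk proteins Rplp1 and Rplp2, which stand on Rplp0 as dimers, thus had nearly the same ratio as their anchor.

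In the small subunit the highest ratio belonged to Rps28, a small protein near the mRNA exit site (chromosome 17, 33819027 to 33824562, minus strand). It had 2673 counts in the knockout and 1068 in the control library, 2.53-fold higher (2.35 to 2.72). Rpsa, known also as the laminin receptor (chromosome 9, 120127689 to 120132369, plus strand), had the most counts of any member, with 29825 in the knockout and 14053 in the control library, 2.14-fold higher (2.10 to 2.19). Both were at least 2-fold higher, as was no other member of this subunit.

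Rps29, a zinc-binding protein of the subunit's head, had 3077 counts in the knockout and 1598 in the control library (1.95-fold, 1.83 to 2.07). Rps21 had 2974 and 1611 counts (1.86-fold, 1.75 to 1.98), and Rps20, also of the head, had 6354 and 3452 (1.86-fold, 1.78 to 1.94). Rps19, the gene most often mutated in the human anaemia named after Diamond and Blackfan, had 10221 and 5592 counts (1.85-fold, 1.79 to 1.91). Rps14, a platform protein, had 14343 and 7897 (1.83-fold, 1.79 to 1.89). Rps15, of the head, was 1.78-fold higher, Rps4x 1.66-fold, Rps12 1.64-fold, Rps16 1.63-fold, and Rps9 and Rps2, which line the mRNA entry channel, 1.64-fold and 1.62-fold.

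Other small subunit members differed less between the libraries. Rps18 (1.45-fold), Rps3a1 (1.43-fold) and Rps23, a protein of the decoding centre (1.40-fold), lay just under the threshold. Rps27a, which is made as a fusion with ubiquitin, had 5368 counts in the knockout and 4241 in the control library (1.28-fold). Rps6, the classic substrate of the S6 kinases below mTORC1 (chromosome 4, 86854660 to 86857412, minus strand), had 6660 and 5466 counts, a ratio of 1.23 (1.19 to 1.28), below the median member. Rps26 (1.19), Rps7 (1.20), Rps13 (1.20) and Rps25 (1.09) had ratios closer to 1. For Rps3, which lies at the mRNA entry channel beside Rps2, the counts were 5164 and 5019, and the interval of its ratio of 1.04 included 1 (0.999 to 1.08).

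In the large subunit the highest ratio belonged to Rpl38 (chromosome 11, 114668524 to 114672331, plus strand), whose loss in the Tail short mouse disturbs the patterning of the axial skeleton. It had 3853 counts in the knockout and 1633 in the control library, 2.38-fold higher (2.25 to 2.53). Rpl10a, the protein of the mobile stalk at the exit site, had 5790 and 3220 counts (1.82-fold), and Rpl37a had 4882 and 2727 (1.81-fold). Rpl41, the shortest ribosomal protein, had 13517 and 8015 counts (1.70-fold), and Rpl36 had 10047 and 6029 (1.68-fold). Rpl28, Rpl23, Rpl32, Rpl37, Rpl35a, Rpl36a and Rpl8 lay between 1.59-fold and 1.63-fold higher.

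Several large subunit members had ratios nearer to 1. Rpl3, near the peptidyl transferase centre, had 5833 counts in the knockout and 4852 in the control library (1.21-fold), while Rpl8, also of that centre, was among the higher members above, and Rpl4, which lines the exit tunnel, had 6967 and 6376 (1.10-fold). Rpl10, which joins the subunit last, had 6034 and 5736 counts (1.06-fold, 1.03 to 1.10). Rpl5 and Rpl11, which as a complex with ribosomal RNA can bind Mdm2 and so stabilise p53, differed from each other, with 4975 and 3863 counts for Rpl5 (1.30-fold, a log2 ratio of 0.38) and 8623 and 8357 for Rpl11 (1.04-fold, 1.01 to 1.07).

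Rpl15 and Rpl23a were the only members with a mean of at least 10 CPM, copies aside, that were lower in the knockout library. Rpl15 (chromosome 14, 18267823 to 18271391, minus strand) had 3697 counts in the knockout and 4296 in the control library, 1.15-fold lower. Rpl23a, at the mouth of the tunnel (chromosome 11, 78180932 to 78183584, minus strand), had 2104 and 2977 counts, 1.40-fold lower. Exons of 2 rows on the opposite strand cover 55.4% of the principal transcript of Rpl23a, and the one with the larger overlap, Tlcd1, had 1334 counts in the knockout and 2458 in the control library. The library kit does not mark strand, so reads of these overlapping genes cannot be told apart, and their part in the ratio of Rpl23a was not tested. The same limit holds for other members with opposite-strand exons. Such exons cover 68.3% of the principal transcript of Rpl35, 57.4% for Rpl30, 52.2% for Rps25, 46.6% for Rpl5 and 40% for Rpl31.

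The libraries differ in sex-linked transcripts, and 4 members lie on the X chromosome. Rps4x had 7146 counts in the knockout and 4340 in the control library (1.66-fold), Rpl36a 2615 and 1650 (1.60-fold), Rpl39 2077 and 1480 (1.42-fold) and Rpl10 6034 and 5736 (1.06-fold). These log2 ratios lay between 0.09 and 0.73, inside the range of the other members, and without the 4 genes the median over the remaining 81 was 0.46 (30 higher, 3 lower).

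Of the 14 copies, 8 passed the filter, with 1 higher (12.5%), 2 lower (25%) and 5 neither, against 21.9% each way over all genes. Their median log2 ratio was 0.02. Rpl3l, the skeletal and heart muscle form of Rpl3 (chromosome 17, 24727820 to 24736143, plus strand), had 52 counts in the knockout and 453 in the control library, 8.63-fold lower (6.46 to 11.7), while Rpl3 was 1.21-fold higher. Skeletal muscle markers moved with Rpl3l, as 13 of 13 measured markers were lower, their summed share of counts was 0.0336% in the knockout and 0.362% in the control library, and the fourteenth, Tnnc2, was at 0 in both. Eef1a2, the muscle and nerve form of the elongation factor Eef1a1, had 51 and 1018 counts, 19.8-fold lower (14.9 to 26.7). The part of muscle RNA in these ratios was not tested.

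Rps27l, a paralog of Rps27 that p53 can induce, had 1974 counts in the knockout and 2212 in the control library (1.11-fold lower, 1.04 to 1.18), while Rps27 had 2818 and 2203 (1.29-fold higher). Rpl22l1, the paralog of Rpl22, had 408 and 447 counts with an interval that included 1 (ratio 0.922, 0.804 to 1.06), while Rpl22 had 3063 and 2625 (1.18-fold higher). Rpl37rt, a copy of Rpl37 typed as a transcribed processed pseudogene, had 312 and 94 counts. Its ratio was the highest of any member (3.35-fold, 2.65 to 4.27), but its mean lay under 10 CPM, and reads may be shared with Rpl37. Rps3a2, a processed pseudogene called lower, had 14 and 36 counts and passed the filter through the control library only. Rps4l, a transcribed processed pseudogene like Rpl37rt, had 640 and 531. Rps27rt (29 and 23 counts) and Rpl39l (50 and 44) had intervals that included 1. Rpl6l, Rpl36al and Rps3a3 had between 8 and 20 counts in each library and did not pass the filter. Rpl10l, Rpl32l and Rps12l1 had no counts in either library. Near-identical sequences make the assignment of reads to copies uncertain.

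**Figure D2:**
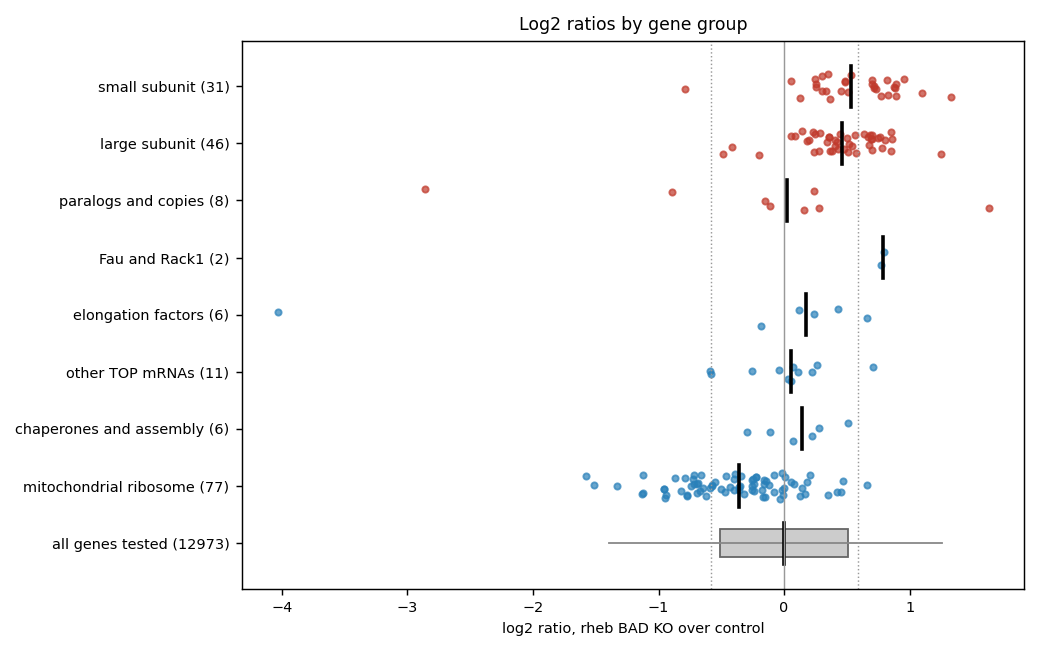
Log2 ratio of rheb BAD KO over control for each gene (points) with the median of each group (black bar) and, for all 12973 genes tested, the middle 50% (box) and the 5th to 95th percentile (line). Dotted lines mark 1.5-fold, and numbers in brackets count the genes. Small and large subunit genes have medians of 0.54 and 0.46, and the mitochondrial ribosome one of -0.36.

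Neighbouring genes of translation did not all move with the ribosomal proteins. Ribosomal components whose symbols fall outside the naming rule did: Rack1, the scaffold protein on the small subunit's head, had 8897 counts in the knockout and 5165 in the control library (1.74-fold), and Fau 6878 and 4063 (1.71-fold). Of the 77 measured genes for proteins of the mitochondrial ribosome, 1 was higher (1.3%) and 27 were lower (35.1%), against 21.9% each way over all genes, with a median log2 ratio of -0.36. Mrpl1 had 230 counts in the knockout and 715 in the control library, Mrpl50 537 and 1573, and Mrps31 292 and 761, with log2 ratios of -1.58, -1.52 and -1.33. The cytosolic and the mitochondrial ribosome thus had medians on opposite sides of that of all genes in the same libraries.

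Of 6 elongation factor genes, 1 was higher and 1 lower (16.7% each way, against 21.9% each way over all genes), with a median of 0.18. Eef1d, which reloads the factor with GTP, was 1.59-fold higher, and Eef2, which moves the ribosome along the mRNA, had 26146 counts in the knockout and 19644 in the control library (1.34-fold). Among 11 other mRNAs known to carry a TOP motif, 1 was higher and 1 lower, with a median of 0.06. Tpt1, a translationally controlled protein, had 35714 and 22019 counts (1.64-fold higher), the poly(A)-binding protein gene Pabpc1 2524 and 3832 (lower, log2 ratio -0.59), and the histone chaperone gene Nap1l1 599 and 911, a log2 ratio of -0.58 that lay just short of the threshold. The other 9 of these TOP mRNAs met neither call, as did 7295 of all 12973 genes tested.

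Of 6 measured genes for chaperones and assembly factors of ribosomal proteins, none was higher or lower (median 0.15), against 21.9% each way over all genes. Grwd1, which escorts Rpl3, had 344 counts in the knockout and 240 in the control library (1.45-fold). Heatr3, which in human cells carries Rpl5 to the nucleus, had 381 and 316, and Tsr2, which escorts Rps26, had 166 and 208. Among genes that link Rheb to the ribosome, Rps6kb2 was higher (1290 and 684 counts, 1.91-fold), Rps6kb1 had a ratio of 1.30 and Larp1 one of 1.22. The translational repressors Eif4ebp1 (1035 and 3288 counts) and Eif4ebp2 (1157 and 3243) were 3.15-fold and 2.78-fold lower. Mtor had 2363 and 3089 counts (1.29-fold lower) and Rptor 715 and 821 (1.14-fold lower).

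Markers of other cells differed between the libraries too. Erythroid markers took 0.556% of the knockout and 0.237% of the control counts (5 of 5 measured higher), macrophage markers 0.0121% and 0.00626% (6 of 8 higher), neutrophil markers 0.00495% and 0.000618% (4 of 4 measured higher), fibroblast markers 0.0503% and 0.0409% (3 of 7 higher, 1 lower) and endothelial markers 0.042% and 0.0518% (1 of 5 higher). Brown adipocyte markers took 1.23% and 1.43%, with 1 of 11 higher and 2 lower. Over all genes tested 21.9% were higher and 21.9% lower. No B or T cell marker reached a mean of 1 CPM, at 0.000219% of the knockout and 0.000371% of the control counts in sum. Of these markers, Ly6g, a defining neutrophil gene, had 4 counts in the knockout and 0 in the control library, and Cd3e and Cd3g had 0 in the knockout library. The neutrophil gene Retnlg passed the filter through the knockout library only (48 and 4 counts). Camp (2 and 3 counts) and Ngp (8 and 1) fell below the filter, as did Ly6g. The part of these cells in the ribosomal protein ratios was not tested.

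Among the members, shorter transcripts had higher median ratios. Lengths and GC contents were those of the principal GENCODE transcript. Among transcripts that ranked equally the longest was taken, which gave 5179 bases for Rps15a and 3706 for Rps20. Whether the transcripts chosen are the ones mainly expressed was not tested, so the lengths of some members may be too large. For the 75 members that are not copies and had a mean of at least 10 CPM, the shortest 25 (345 to 681 bases) had a median log2 ratio of 0.70, the middle 25 one of 0.49 and the longest 25 (1047 to 5179 bases) one of 0.38. Over all genes tested the bin with the shortest transcripts, up to 765 bases, had a median of 0.09, and the next bin, up to 1056 bases, one of -0.17. The 25 members with the highest GC content (53.1% to 60.8%) had a median of 0.67, the middle 25 one of 0.41 and the 25 with the lowest (41.3% to 49.2%) one of 0.49, so the medians did not follow GC content in order. Over all genes the GC bin medians lay between -0.21, in the second lowest of 20 bins, and 0.30, in the second highest. As a description across these 75 genes, which share both libraries, the log2 ratio had a Pearson r of -0.30 with log length (Spearman rho -0.37) and of 0.30 with GC content (rho 0.28). With each gene's ratio set against the median of its length bin, the median of the 85 members was 0.55, with 40 higher and 3 lower (background 21.7% and 21.7%). Against its GC bin the median was 0.47, with 29 higher and 3 lower (background 21.1% and 21.4%).

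**Figure D3:**
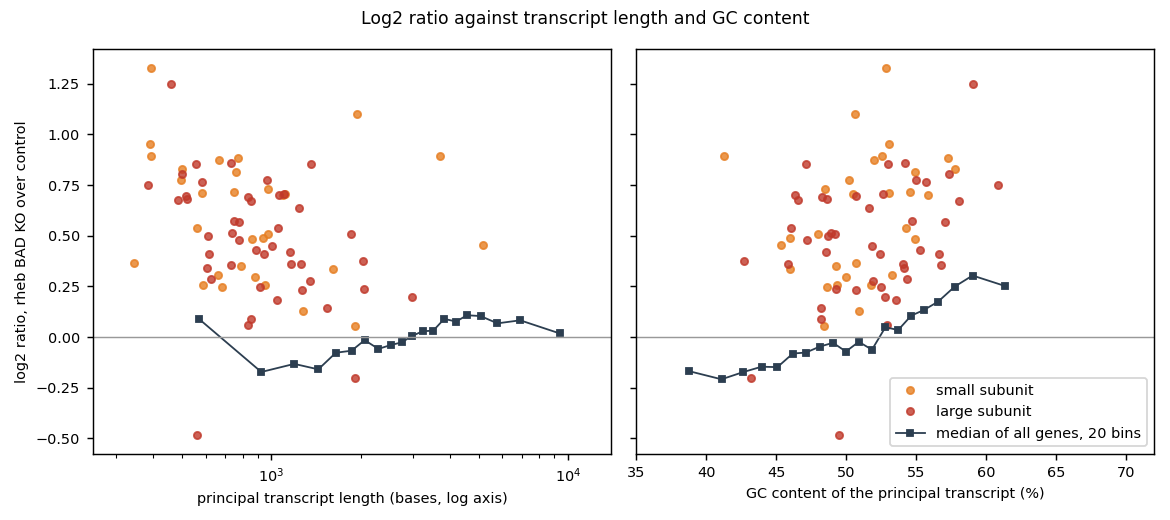
Log2 ratio of rheb BAD KO over control for 75 members (small subunit orange, large subunit red) against the length (left, log axis) and GC content (right) of the principal transcript, with the medians of all 12973 genes in 20 bins (dark squares). Most members lie above the line of bin medians, and members of 345 to 681 bases reach the highest ratios.

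Levels per length describe how evenly the set was expressed, and they depend on the transcript chosen for each gene. Rps15a and Rps20, with chosen transcripts of 5179 and 3706 bases, had 30.17 and 75.71 CPM per kilobase in the knockout library. Given as CPM per kilobase of the principal transcript, the 75 members had a median of 328.1 in the knockout and 233.1 in the control library, and the middle 50% lay between 230.1 and 453.8 in the knockout and between 164.4 and 315.1 in the control library. Across the middle 50% the level thus varied 1.97-fold and 1.92-fold. Rplp1 had the highest level, with 1498 CPM per kilobase in the knockout and 857.1 in the control library, followed by Rpl36 with 1158 and 688.3 and Rpl41 with 1026 and 602.1. The order of members was similar in both libraries (Spearman rho 0.92 across 75 genes, as a description), with the knockout level above the control level for 73 of the 75.

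Rpl13a, Rpl24 and Rps10 had far fewer counts than the rest. Rpl13a, known from interferon-driven translational silencing, had 285 counts in the knockout and 252 in the control library. Rpl24, the gene of the Belly spot and tail mouse, had 18 and 28, and Rps10 had 33 and 66. The other 74 members that are not copies had at least 2077 counts in the knockout and at least 1068 in the control library. In the deposited table, exons of another row on the same strand (small RNAs left out) cover 59.3% of the principal transcript of Rpl13a, 71.5% of that of Rpl24 and 53.6% of that of Rps10, among them a row named RPS10-NUDT3. Those other rows with the largest overlap had 0 counts in both libraries. The copy Rpl36al, with 63.1% covered and 8 and 11 counts, was the only further member with such an overlap on the same strand. The levels and ratios of these 4 genes are therefore uncertain, including the call of Rps10 as 1.98-fold lower (1.29 to 3.11), and the part of the overlap in the low counts was not tested.

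**Figure D4:**
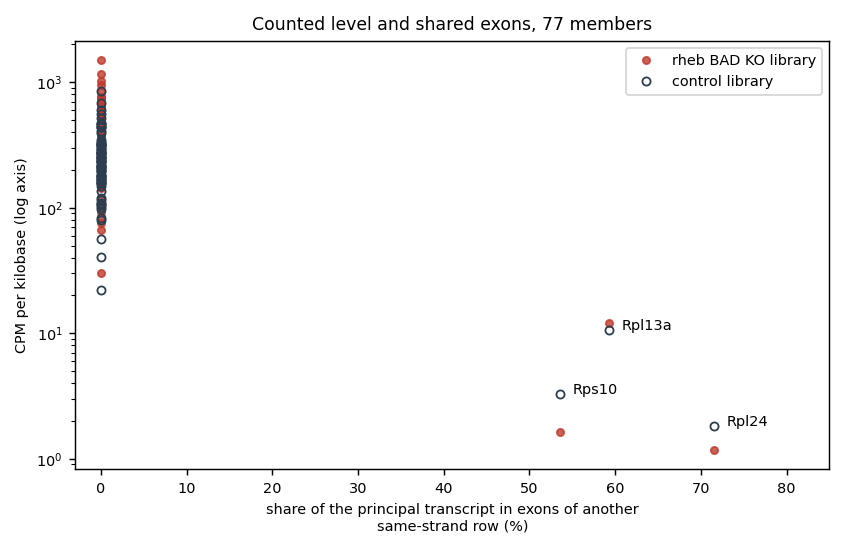
Level of the 77 members that are not copies, as CPM per kilobase on a log axis, in the rheb BAD KO library (filled) and the control library (open), against the share of the principal transcript that lies in exons of another row on the same strand. Rpl13a, Rpl24 and Rps10 have shares of 53.6% to 71.5% and the lowest levels, and the other 74 members have a share of 0.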

How the data were processed

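Per the labels' protocols, Trizol RNA was made into libraries by TruSeq RNA Sample Preparation v.2. The authors deposited raw read counts per gene, with no normalization, and per the submitters' processing notes reads went through Trimmomatic, HISAT2 and featureCounts on mm10. Not given in the sources used here are versions, the strand setting and how multiply mapped reads were treated. Each group is 1 library from 3 pooled mice, so no test was run. Counts were scaled with TMM (edgeR 4.0.16, R 4.3.3), and log2 ratios use CPM plus a pseudocount of 0.5, which understates changes of low genes. Single-gene folds carry no pseudocount. The filter kept genes averaging 1 CPM or more. Depth was 23699316 counts in the knockout and 21855229 in the control library. Intervals hold counting error only and treat every counted read as independent. No removal of PCR duplicates is named among the processing steps, and duplicates would make the intervals too narrow. Length, GC content, gene type and exons came from GENCODE M21 (GRCm38), using the APPRIS principal transcript, then support level, then the longest transcript. The table's merged-exon length, another deposited value, was carried along and enters no score or ratio. Sequences came from RefSeq. Members and lists were chosen with earlier results of these data known. The members in full are the 8 highest and 8 lowest ratios at 10 CPM, the stalk, Rps6, Rpl5, Rpl11, X-linked genes and copies; up to 3 genes per list are named. The ratio step was tested on simulated counts. Alternatives included DESeq2 1.42.0 size factors, other scalings, filters, pseudocounts and thresholds. Some genes are counted in the groups but not reported here by name.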

Additional observations from a re-analysis of the deposited data

Results flagged for a closer look

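Rows named as ribosomal protein pseudogenes (-ps), which no comparison above uses, carried counts in both libraries. The 298 rows together took 0.0328% of the counts in the rheb BAD KO library (7783 counts; interval 0.0321% to 0.0336%) and 0.0220% in the control library (4805 counts; 0.0214% to 0.0226%). The share was thus higher in the knockout library, as it was for the genes these rows resemble. How many of these reads come from the parent genes was not tested.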

How the results depend on the processing

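No paired analysis was possible because a lone pooled library stands for each group, and for the same reason none was left out in turn. All alternatives in the list of planned settings were run. Under none of them did a member called higher or lower change direction. This is no check of the calls, since a call needs a log2 ratio of at least 0.585 either way. The scalings, and the length and GC bin medians of at most 0.30, shift ratios by less than that. The 32 of 85 members called higher (21.9% over all genes) became 20 with total counts (17.4% over all genes). They became 57 at a log2 threshold of 0.32 (31.6%) and 4 at 2-fold (9.26%). The 3 members called lower became 1 with a filter of 10 CPM, a pseudocount of 2, a 2-fold threshold or without the copies. The median log2 ratio of 0.48 was 0.35 with total counts, where the median of all genes was -0.13, and 0.55 against length bins. For total counts the scaling itself accounts for the move, since the distance from the median of all genes was 0.47, against 0.48 with TMM. The share of counts, 2.28% in the knockout and 1.70% in the control library, became 4.02% and 2.50% of nuclear genes, 2.79% and 1.98% of protein-coding genes, and 2.31% and 1.72% with the -ps rows added; the denominators and rows differ by construction. In all of these the knockout value was the higher. Depth limits only the members with few counts, and mice within a pool cannot be separated.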
